A study of Caenorhabditis elegans with 24 samples.

Results

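The fbxa genes of C. elegans were examined across the libraries of a study of TDP-1, the worm ortholog of the RNA-binding protein TDP-43. Members were taken by name, as every gene listed under an fbxa- symbol, which gave 223 of the 45642 genes in the poly(A) table and 10 of the 8783 genes in the J2-IP table. A member was counted as expressed when its normalized count was at least 10 in at least 3 of the 6 poly(A) libraries, and 165 members met this.

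F-box proteins are the substrate-binding subunits of SCF ubiquitin ligases. The F-box itself holds a Skp1-related adaptor (an SKR protein in the worm), the adaptor holds a Cullin scaffold, and the rest of the F-box protein selects the target to be ubiquitinated. FBXA proteins pair the F-box with an FTH domain (the FOG-2 homology region), and the family is strongly expanded in C. elegans, with many copies next to each other. Among its members, FBXA-75 and FBXA-158 are known as subunits of a CUL-6 ligase of the intracellular pathogen response, and the related protein FOG-2 works with GLD-1 in the switch to sperm in hermaphrodites. Most other members have no assigned target.

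Poly(A) RNA came from whole L4 animals grown at 20°C, in 3 libraries of wild-type N2 (strain N2-CGC B) and 3 of tdp-1(ok803), a deletion allele of tdp-1. J2-IP RNA, pulled down with the J2 antibody against double-stranded RNA, came from young adults grown at 15°C, in 3 libraries per genotype, with 1 input library (RNA of the lysate before the pull-down) per genotype. Both assays therefore differ in stage, temperature and RNA selection, and their levels were not set against each other. The labels name no transgene, and in whole animals fewer cells of a type and less RNA per cell cannot be told apart.

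The poly(A) libraries held between 65546397 and 107297985 reads in genes, and the J2-IP values summed to between 1046152 and 1387056. The tdp-1 gene had normalized counts of 2156, 3501 and 4322 in wild-type replicates 1 to 3 and of 915, 3542 and 3478 in those of tdp-1(ok803), so the groups overlapped at this gene. The poly(A) libraries are named by their labels below, and those of the deletion strain are called the mutant-labelled libraries. Replicate 1 of both genotypes stood apart from replicates 2 and 3 in the poly(A) data, and results are given with and without it. Summed counts of the yolk genes (6 vit- genes, none at 0 in any library) spanned 186941 to 523411 in the wild-type libraries and 88283 to 149463 in the mutant-labelled ones. Those of the sperm msp- genes (35 genes, 9 of them at 0 in at least 1 library) spanned 23438 to 124743 and 22970 to 52979, and those of 10 oocyte and eggshell genes (none at 0) spanned 13221 to 40145 and 10681 to 18442. All 5 intestinal, all 3 body wall muscle and all 6 neuronal markers were expressed, as were 3 of 4 hypodermal and all 4 germ line markers.

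Most fbxa genes were detected in L4 animals. The 165 expressed members were 74.0% of the family, 41 more had some signal below the threshold, and 17 were at 0 in all 6 libraries. By the same threshold 34.6% of all listed genes were expressed, as were 11 of 113 fbxb- genes (9.74%), 21 of 56 fbxc- genes (37.5%) and 23 of 44 bath- genes (52.3%). The fbxb- and fbxc- genes are the other large F-box classes of the worm, and the bath- genes encode MATH and BTB domain proteins, the kind of adaptor that serves CUL-3 ligases. Of all 45642 listed genes, 24805 were at 0 in all 6 libraries, and the listed genes were not divided by type. The 34.6% is therefore not a share of protein-coding genes. All shares above are descriptions and the differences between families were not tested.

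The members lay mostly on 2 chromosomes. Of the 222 members found in the RefSeq annotation (assembly WBcel235), 92 were on chromosome V and 73 on III, with 21 on II, 17 on X, 13 on I and 6 on IV. The expressed share was 82.2% on III, 73.9% on V and 52.9% on X. RefSeq calls 170 of them protein coding and 52 pseudogenes, and the expressed share was 76.5% among the first and 67.3% among the second. Poly(A) signal over a member annotated as a pseudogene was thus common. Reads from near-identical copies may have been split or dropped in counting, which makes the values of single copies uncertain, and similarity between copies was not analysed here.

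**Figure D1:**
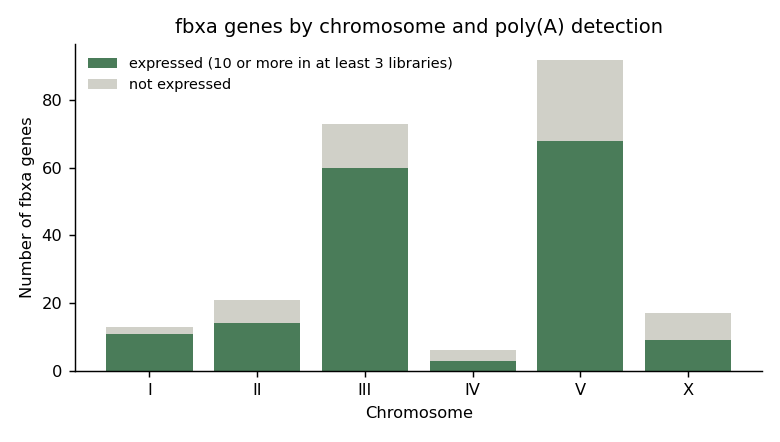
Number of fbxa genes on each chromosome (x axis), divided into members expressed in poly(A) RNA (green) and members below the threshold (grey). Chromosomes III and V hold 73 and 92 members, of which 60 and 68 were expressed.

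Counting only protein-coding genes and pseudogenes along each chromosome, 135 members had another fbxa gene as a direct neighbour, in 41 runs of up to 10 genes. The expressed share was 74.8% among these and 73.6% among the 87 members that stood alone. Levels differed within a run. In the run of 10 on chromosome III, the mean normalized count over 6 libraries was 429 at fbxa-33 and 161 at fbxa-34, both annotated as pseudogenes. Next came 396 at fbxa-37, 77.7 at fbxa-50, 18.2 at fbxa-49 (also annotated as a pseudogene), 32.2 at fbxa-36 and 22.1 at fbxa-35. The mean was 0 at fbxa-28, 2.26 at fbxa-75 and 368 at fbxa-79, the last gene of the run. Normalized counts depend on transcript length as well as level, and no length was available, so the order of these counts is not an order of transcript abundance.

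Counts of the family were low beside the rest of the transcriptome. They were not corrected for transcript length, so this is not a comparison of transcript abundance. The median expressed member had a mean normalized count of 144 (25th to 75th percentile 40.2 to 365), whereas the median over all 15807 expressed genes was 874. There were 65 members below 100 and 7 above 1000, and the 10 with the highest counts held 30.4% of the family's total. Summed over the 223 members, the libraries had 47128, 46376 and 37668 normalized counts in wild-type replicates 1 to 3 against 40045, 47700 and 47560 in the mutant-labelled libraries, which overlapped.

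The 6 members with the highest counts were fbxa-72, fbxa-60, fbxa-74, fbxa-101, fbxa-59 and fbxa-210. For fbxa-60 the counts were 2781, 2082 and 1222 in wild type against 1719, 2119 and 2029 in the mutant-labelled libraries. For fbxa-74 they were 1090, 1842 and 1784 against 1059, 2175 and 2334. Replicate 1 was the lowest library of each genotype at fbxa-74. For fbxa-101 the counts were 1108, 1534 and 2069 against 964, 1539 and 1542. For fbxa-59 they were 906, 1566 and 985 against 488, 1528 and 1507. At fbxa-210 the counts were 966, 1014 and 1191 against 995, 1218 and 1121, and at these 5 members the genotypes overlapped. At the lower end, the third highest count was 10.7 at fbxa-111, just inside the threshold, and 9.98 at both fbxa-170 and fbxa-86, just outside. The next member inside was fbxa-173, at 10.9.

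No member differed between genotypes in poly(A) RNA at an adjusted p under 0.05, in either direction, by limma over all 15807 genes with Benjamini-Hochberg adjustment. No gene of the whole table did either (0% in each direction). The numbers of members higher and lower were nearly equal, with 82 of 165 higher in the mutant-labelled libraries. The median log2 fold change of the members was -0.0014 and that of all genes -0.018. At an unadjusted p under 0.05, 3 members were higher (fbxa-52, fbxa-72 and fbxa-163, against 1.51% of all genes) and 0 lower (1.1% of all genes). On the whole reads behind the deposited counts, edgeR called 0 members and 0 genes at an adjusted p under 0.05, and DESeq2 called 0 members beside 7 genes higher (0.0443%) and 10 lower (0.0633%).

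**Figure D2:**
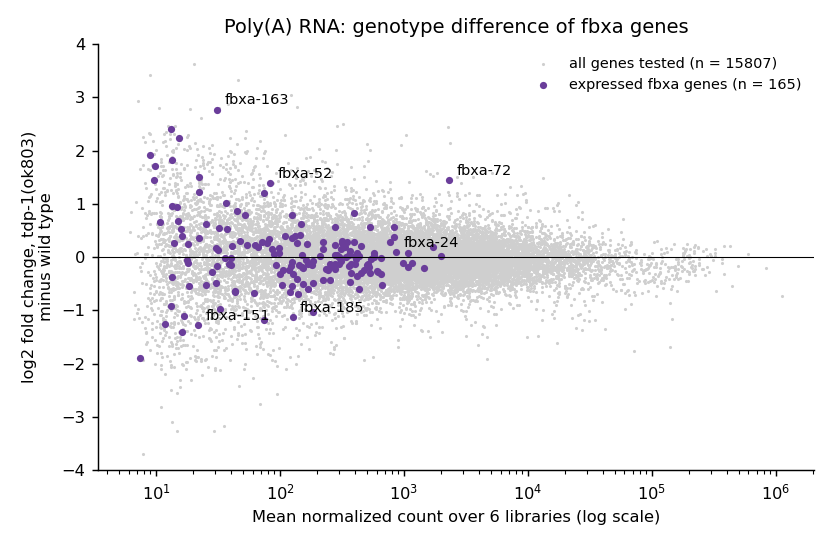
Mean normalized count over the 6 poly(A) libraries (x axis, log scale) against the log2 fold change of tdp-1(ok803) minus wild type on the log2(count + 1) scale (y axis), for all 15807 genes tested (grey) and the 165 expressed fbxa genes (purple). The members lie around 0 with a median of -0.0014, and fbxa-72 stands at 1.44 with the highest count of the family.

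The member with the highest counts, fbxa-72, had its highest values in the 3 mutant-labelled libraries and did not pass the test. Its counts were 1762, 1042 and 689 in wild-type replicates 1 to 3 against 6471, 2161 and 1816 in the mutant-labelled libraries, with means of 1164 ± 547 and 3483 ± 2593 (SD, n = 3). Every mutant-labelled library lay above every wild-type library, and within each replicate number the ratio was 3.67, 2.07 and 2.64. The log2 fold change of fbxa-72 was 1.44 (SE 0.54), with an unadjusted p of 0.031 and an adjusted p of 1 by limma. Without mutant-labelled replicate 1, the highest library, the log2 fold change of fbxa-72 was 0.87. With the replicate number as a block the adjusted p of fbxa-72 was 0.14, and the block left the call as it was. The fbxa-72 gene (F31F4.15) is on chromosome V with no fbxa gene beside it.

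A lower-count member, fbxa-52 (F07G6.6, chromosome X), also kept its groups apart. It had counts of 72.2, 29.0 and 38.9 in wild type against 79.0, 144 and 134 in the mutant-labelled libraries. Replicate 1 held nearly the same count in both genotypes, at a ratio of 1.09, whereas replicates 2 and 3 differed 4.97-fold and 3.45-fold. The log2 fold change of fbxa-52 was 1.39 (SE 0.51), with an unadjusted p of 0.027 and an adjusted p of 1 by limma.

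At fbxa-163 (C08E3.6, chromosome II) the counts rested on few reads. Wild type had 29, 17 and 0 reads and the mutant-labelled libraries had 45, 53 and 51, which gave normalized counts of 22.8, 15.4 and 0 against 39.9, 53.9 and 53.8. The log2 fold change of fbxa-163 was 2.77 (SE 1.18), with an unadjusted p of 0.049 and an adjusted p of 1 by limma. It was 1.33 without wild-type replicate 3, the library at 0, and up to 3.62 without another, while edgeR and DESeq2 gave 1.91 and 1.92 on the recovered reads of fbxa-163. Of its 2 neighbours in a run of 3, fbxa-162 was at 115, 48.1 and 9.38 in wild type against 96.7, 63.0 and 114 in the mutant-labelled libraries and fbxa-161 was at or below 14.8 in every library.

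The other large positive log2 fold changes belonged to members near the detection limit. They were 2.40 (SE 1.45) at fbxa-44, 2.24 (SE 1.1) at fbxa-94, 1.92 (SE 1.25) at fbxa-135, 1.82 (SE 1.28) at fbxa-83 and 1.71 (SE 1.19) at fbxa-152, all with an adjusted p of 1 by limma. Leaving out 1 library moved these values to between 1.64 and 3.92 at fbxa-44, 1.12 and 2.96 at fbxa-94, 1.13 and 3.07 at fbxa-135, 0.74 and 3.05 at fbxa-83, and 0.76 and 2.68 at fbxa-152. On recovered reads, edgeR gave 1.27, 1.84, 1.36, 0.99 and 1.35 at these 5 members in the same order. The highest normalized count of the 5 in any library was 40.6, at fbxa-94 in mutant-labelled replicate 2. At fbxa-94 the groups did not overlap, with 11.8, 7.26 and 0 in wild type against 18.6, 40.6 and 12.7 in the others.

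The 6 members with the largest negative log2 fold changes included fbxa-151 and fbxa-185. For fbxa-151 (ZC47.7, in a run of 5 on chromosome III) they were 30.6, 22.7 and 40.2 in wild type against 7.98, 15.2 and 13.7 in the mutant-labelled libraries, which did not overlap. Its log2 fold change was -1.28 (SE 0.59, adjusted p of 1 by limma). For fbxa-185 (F47H4.4, chromosome V) they were 299, 148 and 88.4 against 98.5, 53.9 and 68.6. Each mutant-labelled library was below the wild-type library of the same number, at ratios of 0.329, 0.364 and 0.776, but the groups overlapped. Its log2 fold change was -1.13 (SE 0.53, adjusted p of 1 by limma). The values were -1.18 (SE 0.73) at fbxa-172, -1.40 (SE 1.91) at fbxa-136, -1.26 (SE 1.19) at fbxa-199 and -1.89 (SE 1.29) at fbxa-173. At fbxa-136 both mutant-labelled replicates 2 and 3 were at 0 and replicate 1 was at 42.6. Leaving out 1 library gave -0.67 to -1.55 at fbxa-185, -0.78 to -1.94 at fbxa-172, -0.49 to -3.22 at fbxa-136 and -1.20 to -3.28 at fbxa-173. At fbxa-199 the value without mutant-labelled replicate 3 was 0.02. By edgeR on recovered reads the values were -0.34 at fbxa-136, -0.64 at fbxa-173 and -0.50 at fbxa-199.

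The genotypes did not overlap at 13 members. Higher in all 3 mutant-labelled libraries were 8 (fbxa-8, fbxa-38, fbxa-52, fbxa-72, fbxa-94, fbxa-163, fbxa-169 and fbxa-190), which is 4.85% of the 165 against 4.43% of all genes. Lower were 5 (fbxa-9, fbxa-54, fbxa-61, fbxa-151 and fbxa-202), or 3.03% against 3.49%. Both shares were near those of all genes. Members that were higher within each of the 3 replicate numbers made up 16.4% (27 members, all genes 15.2%), and members that were lower 9.09% (15 members, all genes 18.2%). At fbxa-8 all 3 wild-type libraries were below the expression threshold, at 7.85, 7.26 and 9.38. It could be counted as expressed only through all 3 mutant-labelled libraries. Its place among the 8 and among the 27 was therefore set by the filter. Fitted with the replicate number as a block, 8 members were higher at an unadjusted p under 0.05 (all genes 5.02%) and 3 were lower (all genes 5.73%). After adjustment none remained past 0.05 in the blocked fit, where 1 gene of all was higher (0.00633%) and 0 were lower (0%).

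**Figure D3:**
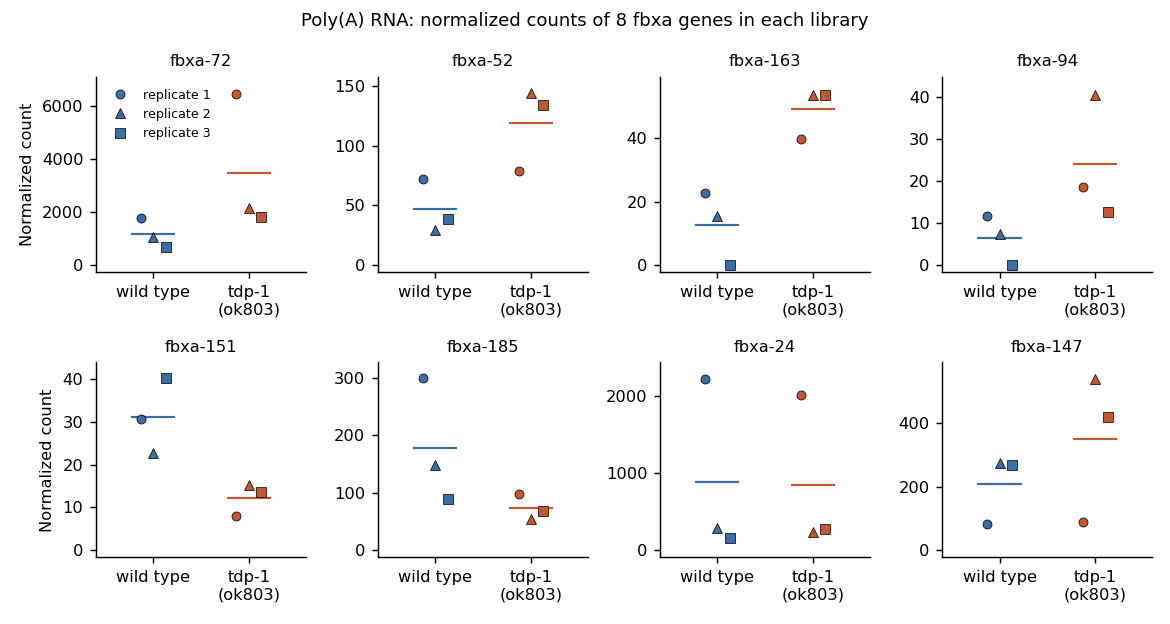
Normalized count (y axis, from 0) of 8 fbxa genes in each poly(A) library, by genotype (blue, wild type; orange, tdp-1(ok803)) and replicate number (circle, triangle, square), with lines at the means of 3 libraries. At fbxa-72, fbxa-52, fbxa-163 and fbxa-94 every orange point is above every blue one, whereas at fbxa-24 and fbxa-147 replicate 1 of both genotypes stands apart from the rest.

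Without replicate 1, fbxa-72 and fbxa-52 were higher in the mutant-labelled libraries at an adjusted p under 0.05. This fit rests on 2 libraries per genotype, and replicate 1 was left out because it stood apart in these same data. In replicates 2 and 3 of both genotypes, the log2 fold change of fbxa-72 was 1.22 (SE 0.24, adjusted p = 0.029 by limma) and that of fbxa-52 was 2.02 (SE 0.45, adjusted p = 0.043 by limma). Over the 14 alternatives run, the adjusted p ran from 0.029 to 1 for fbxa-72 and from 0.043 to 1 for fbxa-52. These 2 members were 1.21% of the 165, beside 2.09% of all genes called higher, and 0 members were called lower beside 2.2% of all genes. In the same libraries 115 of the 165 members were higher (69.7%, all genes 49.7%), with a median log2 fold change of 0.19 against -0.0038 over all genes. By replicate number, the median difference of the members was -0.30 in replicate 1, 0.04 in replicate 2 and 0.43 in replicate 3, so the family had no common direction across the replicates. In replicates 2 and 3, 6 of 6 vit-, 20 of 27 msp- and 8 of 10 oocyte and eggshell genes were called lower in the mutant-labelled libraries, and their part in the members' values was not tested.

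Other genes of the same ligases also gave 0 calls in either direction over the 3 replicates. No gene of the whole table was called in that fit (0% in each direction), so the absence of calls is not a result about these lists. None passed among 13 expressed skr- genes, which encode the Skp1-related adaptors (median log2 fold change -0.21), or among 10 genes for Cullins, RBX proteins and the NEDD8 pathway that activates Cullins (median 0.01). The same held for 8 single F-box genes such as lin-23 and sel-10 (median -0.21), 11 fbxb- genes (median -0.05), 21 fbxc- genes (median -0.24) and 23 bath- genes (median -0.10). In replicates 2 and 3 alone, 1 fbxc- gene was called higher and 0 genes of the skr-, Cullin, single F-box, fbxb- and bath- lists were called. Over all genes 2.09% were called higher and 2.2% lower there. All of these lists are described by counts and medians only.

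Of the CUL-6 ligase subunits, fbxa-158 was expressed by the threshold and fbxa-75 was not. For fbxa-158 (C08E3.10), the counts were 243, 96.2 and 33.5 in wild type against 169, 110 and 90.8 in the mutant-labelled libraries, with replicate 1 the highest of each genotype. For fbxa-75 (Y119D3A.1) the wild-type libraries held 11, 0 and 3 reads and the others 1, 0 and 0, below the threshold throughout. The pals- genes, among them the regulators pals-22 and pals-25 of the intracellular pathogen response, gave 0 calls among 25 expressed (all genes 0%). The median log2 fold change of the pals- genes was -0.18. Their replicate 1 was higher than replicates 2 and 3 by a median of 0.79 on the log2 scale, against 0.03 over all genes.

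Some of the widest differences among the members lay between replicate numbers. For fbxa-24 (F54D10.2, chromosome II), the counts were 2209, 291 and 165 in wild type against 2010, 239 and 270 in the mutant-labelled libraries. Replicate 1 was 10.04-fold above the geometric mean of replicates 2 and 3 in wild type and 7.89-fold above it in the mutant-labelled libraries, while the ratio of the genotypes within each number was 0.910, 0.820 and 1.64. Its only fbxa neighbour, fbxa-146, had 473, 269 and 127 in wild type against 246, 308 and 236 in the others. The same direction was seen at fbxa-136, fbxa-44 and fbxa-154, whose highest counts were 42.6, 35.5 and 25.9. The fold values of fbxa-24 are on the scale of the count plus 1.

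The 4 members with the largest difference in the opposite direction, fbxa-147, fbxa-42, fbxa-18 and fbxa-196, were lower in replicate 1 of both genotypes. For fbxa-147 (R08A2.4) the counts were 83.2, 273 and 267 in wild type against 87.8, 539 and 417 in the mutant-labelled libraries. For fbxa-196 (T05H4.2) they were 126, 346 and 386 against 130, 386 and 362. For fbxa-18 they were 15.7, 49.0 and 49.6 against 18.6, 54.9 and 58.0. For fbxa-42 they were 124, 405 and 180 against 32.8, 173 and 184. At each of these 4 members both replicate 1 libraries were below all 4 others.

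Over the 165 expressed members, replicate 1 minus the mean of replicates 2 and 3 had a median of -0.09 on the log2 scale (25th to 75th percentile -0.55 to 0.39), beside 0.03 over all genes (-0.54 to 0.56). The median was 0.15 in wild type and -0.41 in the mutant-labelled libraries. The size of the difference was above 1 at 37 members (22.4%, all genes 25.4%). Both replicate 1 libraries were above the 4 others at 15 of the 165 members and below them at 33 of the 165. Over all genes these made up 24.3% and 24.8%, both larger shares than among the members. Across the 165 members the wild-type difference and the mutant-labelled difference had a Pearson r of 0.46, a description over genes that share libraries and are not replicates, and r was 0.66 over all expressed genes. Summed vit- counts were 186941 in replicate 1 and 483193 and 523411 in replicates 2 and 3 of wild type, and 88283, 120614 and 149463 in the mutant-labelled libraries. The part of these yolk genes, or of the msp- genes given above, in the members' replicate difference was not tested.

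**Figure D4:**
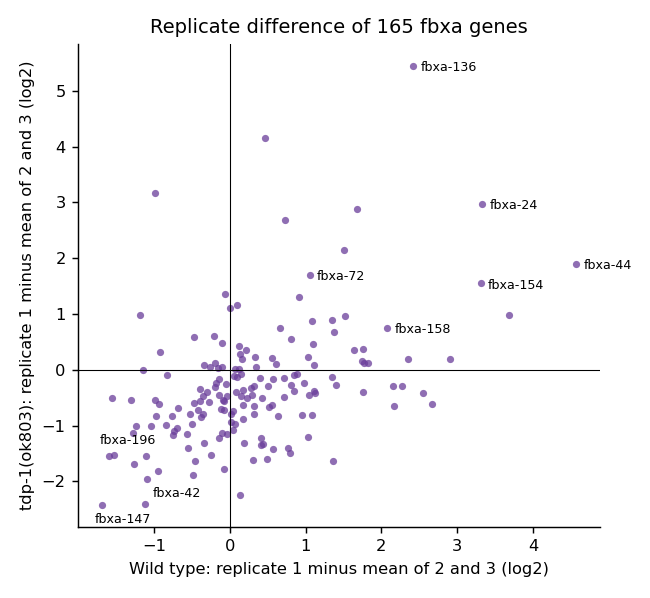
Replicate 1 minus the mean of replicates 2 and 3, as log2(normalized count + 1), in wild type (x axis) and in the mutant-labelled libraries (y axis) for the 165 expressed fbxa genes. The point of fbxa-24 lies far from 0 on both axes (3.33 and 2.98), and fbxa-147 is at -1.68 and -2.42.

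Of the 223 members, 10 had values in the J2-IP table, and all 10 also had an input value. Input values were small, with a median of 9.5 in wild type against 26 over all joined genes, and 5 of the 10 were at 10 or more. The mean J2-IP value was over 1.5-fold above the wild-type input at 6 of the 10 members in wild type, beside 29.6% of the 8436 genes with an input above 0. In tdp-1(ok803) it was over 1.5-fold above the same input at 6 members, beside 43.1% of genes. The median fold was 1.65 over the members and 1.15 over all genes in wild type. With 1 input library per genotype there is no test of these folds, and the spread given covers the J2-IP libraries only. The deposited J2-IP values are described as already normalized to input, by a formula not given. Dividing them by the input may thus count the input again, in these folds and in the 1.5-fold filter used below.

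The highest folds came from the lowest inputs. For fbxa-34 (ZC47.10, annotated as a pseudogene), the wild-type J2-IP libraries held 9, 7 and 9 and those of tdp-1(ok803) 8, 9 and 10, over an input of 1 in each genotype. The fold was 8.33 in wild type, and a single unit of input stands behind it. For fbxa-63 (Y119D3B.7) the input was also 1 in each genotype. The wild-type J2-IP libraries held 13, 1 and 16, and those of tdp-1(ok803) held 9, 0 and 27. Replicate 2 of both genotypes was nearly without signal at fbxa-63, so its mean describes no single library.

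Larger inputs stood behind fbxa-24, fbxa-192 and fbxa-206. For fbxa-24 the wild-type J2-IP values of 34, 31 and 32 lay over an input of 19, a fold of 1.70. For fbxa-192 (F57G4.8) they were 20, 26 and 23 over 11, a fold of 2.09. For fbxa-206 (Y102A5C.1) they were 29, 28 and 24 over 17, a fold of 1.59. Among the rest, fbxa-203 (W05F2.5, a pseudogene) had 7, 7 and 9 over 4, and fbxa-55 (T12B5.6) had 9, 12 and 13 over 8, a fold of 1.417.

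The 3 remaining members were near or below their input. The largest values of the 10 were those of fbxa-215 (Y45F10C.3), at 71, 58 and 74 over an input of 54 in wild type, a fold of 1.25. For fbxa-210 (Y37H2A.5) they were 10, 9 and 10 over 11, and for fbxa-101 (F08A8.7) 8, 5 and 6 over 8. Both fbxa-210 and fbxa-101 are among the 6 members with the highest poly(A) counts in L4 animals, which were not compared with these values.

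**Figure D5:**
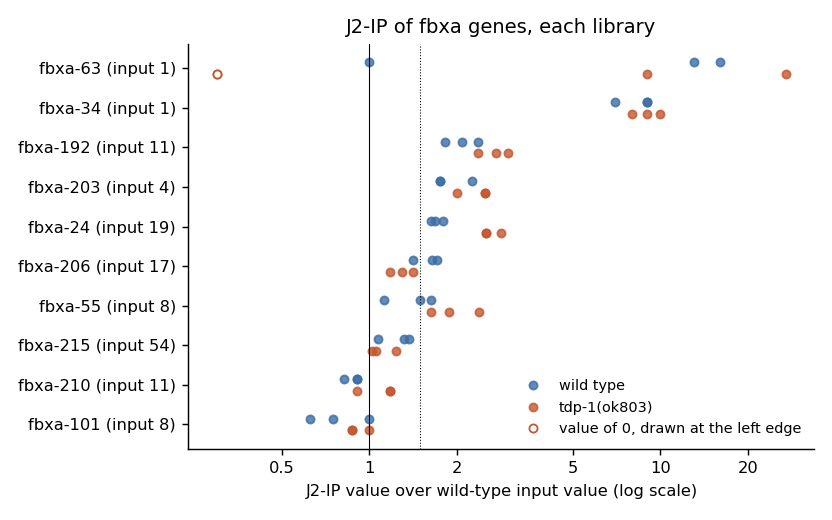
J2-IP value of each library divided by the wild-type input value (x axis, log scale) for the 10 fbxa genes measured (y axis, with the input value), with wild type in blue and tdp-1(ok803) in orange, with lines at 1 and at 1.5-fold. The points of fbxa-24 separate by genotype, at means of 1.70 and 2.63, and the value of 0 at fbxa-63 is drawn at the left edge.

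Between genotypes, J2-IP recovery was tested at the 7 members past the fold over input in at least 1 genotype, within 3844 genes, at p under 0.05 and adjusted p under 0.1. Called higher in tdp-1(ok803) were 2 members, fbxa-24 and fbxa-192 (28.6%, all genes 44.1%), and called lower was 1, fbxa-206 (14.3%, all genes 7.73%). The filter let in fbxa-206 only through wild type, at a fold of 1.588 against 1.294 in tdp-1(ok803). It was thus chosen through the group where it was higher, and the filter leaned toward its direction. With no filter on the fold over input, the adjusted p of fbxa-206 was 0.080 by limma. The median log2 fold change over all 3844 genes was 0.22, so most genes were higher in the mutant on the deposited scale. Scaled by median of ratios it was -0.02, and the share of calls that were higher went from 85.1% to 44.9%.

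At fbxa-24 the values in tdp-1(ok803) were 48, 48 and 54, all above the wild-type values of 34, 31 and 32. It was the only one of the 7 at which the groups did not overlap with tdp-1(ok803) higher (all genes 43.6%), and none did so with tdp-1(ok803) lower (all genes 7.54%). The log2 fold change of fbxa-24 was 0.61 (SE 0.08, adjusted p = 0.0024 by limma), and 0.36 after median-of-ratios scaling. The input of fbxa-24 was 19 for wild type but 11 for tdp-1(ok803), a ratio of 0.579. With the mutant values multiplied by the ratio of the inputs, an alternative in case the deposited values had been divided by it, the log2 fold change of fbxa-24 was -0.16 (adjusted p = 0.23 by limma). Over the 12 alternatives run, its adjusted p ran from 0.0022 to 0.23, and this was the only one above 0.1. Which of these scales holds could not be settled from the files.

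At fbxa-192 wild type had 20, 26 and 23 and tdp-1(ok803) had 26, 33 and 30, which touched at 26. Its log2 fold change was 0.35 (SE 0.13, adjusted p = 0.074 by limma), and the call was lost after median-of-ratios scaling (0.11) and without any 1 of 4 libraries, wild-type replicates 1 and 3 and tdp-1(ok803) replicates 2 and 3 (0.26 to 0.36). At fbxa-206 they were 29, 28 and 24 against 20, 24 and 22, with a log2 fold change of -0.28 (SE 0.11, adjusted p = 0.088 by limma). With the replicate number as a block the adjusted p of fbxa-206 was 0.115 by limma, above the threshold, and the call was also lost without wild-type replicate 1 or 2 and without tdp-1(ok803) replicate 1 or 3. Over all alternatives run its adjusted p was between 0.018 and 0.241.

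The other 4 tested members gave no call. The log2 fold change was 0.43 (SE 0.19, adjusted p = 0.106 by limma) at fbxa-55, where tdp-1(ok803) had 15, 19 and 13 and where leaving out tdp-1(ok803) replicate 3 gave 0.55 with an adjusted p of 0.080 by limma (0.080 to 0.889 over its alternatives). It was 0.26 (SE 0.15) at fbxa-203, 0.10 (SE 0.14) at fbxa-34 and -0.26 (SE 1.36) at fbxa-63, with adjusted p of 0.211, 0.594 and 0.894 by limma. The filter let in fbxa-55 only through tdp-1(ok803), at a fold of 1.958 over the wild-type input against 1.417 in wild type. Its rise, and its call in the alternative above, are therefore of a member chosen through the group where it was higher. In the input libraries the ratio of tdp-1(ok803) to wild type ran from 0.579 at fbxa-24 to 1.25 at fbxa-101.

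One more member appeared in the list of A-to-I edited regions, which are stretches of double-stranded RNA changed by the deaminase ADR-2. A region on chromosome III that the list assigns to an intron of fbxa-1 (Y54F10BM.10) was 1 of 204 listed, with 51 potentially edited positions over all samples as the authors' value. The deposited position of this region does not lie within fbxa-1 in WBcel235, a later assembly than the one the reads were aligned to, and the assignment was not checked further. In poly(A) RNA fbxa-1 had counts of 35.3, 31.8 and 44.2 in wild type against 14.2, 70.1 and 36.9 in the mutant-labelled libraries, which overlapped, and it had no J2-IP value.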

How the data were processed

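The authors deposited normalized counts per gene for poly(A) libraries (a signal: gene counts divided by 1 factor per library), J2-IP and input libraries (a score: normalized values rounded to whole numbers, those of J2-IP normalized to input by a formula not given in the sources used here), and a list of edited regions (another measure: numbers of potentially edited positions). Per the submitters' processing notes, TopHat2 2.0.10, Bowtie2 2.1.0 and HTSeq 0.5.4p3 were among the tools. Reads were aligned to WS220. Treatment of reads matching several genes is not given in the sources used here. The poly(A) kit is taken as unstranded, so overlapping genes cannot be told apart.

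Poly(A) values were whole multiples of 1 read in each library (100% of values above 0 within 0.1 read), and reads were recovered from them. The main test was limma 3.58.1 with a mean-variance trend on log2(value + 1), over genes at 10 or more in at least 3 libraries. Fold changes on this scale depend on the pseudocount for low genes and, where libraries hold 0, can exceed those of the count models. J2-IP was joined to input by name (8604 of 8783 genes), and limma took the genes that had values above 0 in each of the 3 libraries of either genotype and whose mean in either exceeded the wild-type input by more than 1.5-fold. Alternatives used edgeR 4.0.16 and DESeq2 1.42.0 on recovered reads and other scalings. Scripts were tested on simulated data. Authors' columns of changes and p-values, total RNA and ChIP data were not used.

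Deviations from the genotype means of same-numbered libraries correlated at 0.657, 0.435 and 0.353 in poly(A) and 0.387, 0.773 and 0.535 in J2-IP. This pairing was read from the data, as the labels name no shared batch. The main tests were unpaired, and the replicate number entered as a block only in an alternative fit. The J2-IP lysates, and 2 poly(A) replicates per genotype without saying which of the 3, are described as independent, and p-values measure the spread between these libraries. Named members were those with the 6 highest counts, the 6 largest changes each way, calls, the 4 largest replicate differences each way, J2-IP or editing values, FBXA-75 and FBXA-158, and those beside the threshold. The members and lists were chosen with earlier results of these data known. Coding lengths were not available, so the planned comparison of levels between members was not run. Members without calls are not shown to be unchanged.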

Additional observations from a re-analysis of the deposited data

How the results depend on the processing

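Members called in poly(A) RNA stayed at 0 in each direction under a pseudocount of 5, no filter, median-of-ratios scaling, quantile normalization, edgeR, DESeq2, the replicate block and without each library (0 to 0), and were 2 higher with replicates 2 and 3 only. The members' median log2 fold change ran from -0.13 to 0.18 without each library, and the value of fbxa-199 from -2.16 to 0.023, positive only without tdp-1(ok803) replicate 3. The number of expressed members was between 155 and 162 without each library. In J2-IP, 1 of 7 members was called higher after median-of-ratios scaling (all genes 835 of 3844). With mutant values multiplied by the input ratio it was also 1 of 7 (all genes 384 of 3844). Called lower were 0 of 7 with the replicate block (all genes 297 of 3844) and 0 of 5 above 2-fold over input (all genes 186 of 1879). Without each library the number of members called ran from 1 to 2 higher and from 0 to 1 lower. The block changed no other call. The log2 fold change of fbxa-24 was -0.16 with the input ratio, that of fbxa-34 -0.13 after median-of-ratios scaling and -0.0048 without wild-type replicate 2, and that of fbxa-63 ran from -1.30 to 1.1 without each library, and was 0.17, 0.31 and 1.1 without wild-type replicate 1, wild-type replicate 3 and tdp-1(ok803) replicate 2. Members over input were 3 of 10 at 2-fold, 3 of the 5 with an input of at least 10, and 6 to 7 of 10 without each library. Shares of all genes are not given at these settings or for the J2-IP calls without each library. These counts therefore cannot be set against a background and are no result about the members. The median fold of the members was 1.43 with a pseudocount of 5 and 1.61 to 1.69 without each library. The cause of these shifts was not tested. Low input values, a single input library per genotype and the unknown normalization of J2-IP values to input limit the J2-IP folds.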
